A study of Mus musculus with 6 samples.

Results

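The genes described here are 58 components of the Wnt pathway, which carries signals between cells, measured in primary stromal cells of mouse gonadal fat. They were taken by symbol from a list of Wnt ligands, receptors, modulators and target genes, and all 58 were found among the 56748 rows of the deposited gene count table. Gonadal white fat of wild-type (WT) C57BL/6 mice (spelled C57B1/6 in the labels) of both sexes, aged 12 weeks, was the source, and its stromal vascular cells were plated directly for 48 h on hydrogels with a stiffness of 12 kPa. In the col1 group (n = 3 libraries) the gel was coated with type I collagen at 0.05 mg/mL. In the col1-ACLP group (n = 3) the same collagen was polymerized with 30 nM recombinant ACLP, the aortic carboxypeptidase-like protein, a secreted protein that binds fibrillar collagen. Polyadenylated RNA was sequenced in bulk, and the comparison asks how collagen-bound ACLP changes the transcripts of these stromal cells. The cells were not sorted, sexes were not labelled by library, and neither the labels nor the methods say which mice, or how many, gave each library. What the p-values measure is thus the library-to-library spread, part of which may be technical.

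Wnt proteins are secreted, lipid-modified ligands that bind Frizzled receptors on the cell surface together with co-receptors. With LRP5 or LRP6 as co-receptor, binding keeps β-catenin from being degraded, and β-catenin then acts in the nucleus with TCF/LEF factors. With ROR1, ROR2 or RYK, Wnt ligands such as WNT5A act through branches that steer cell shape, polarity and movement. R-spondins and their LGR receptors raise the amount of Frizzled on the surface, whereas secreted Frizzled-related proteins and Dickkopf proteins block ligand or co-receptor. In fat, canonical Wnt signalling is known for holding back the differentiation of progenitors into adipocytes.

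The libraries held 33343651 to 47142754 counts, and values are given as CPM, the share of a library's counts scaled to a common total after adjustment by trimmed mean of M-values (TMM). Levels of different genes are compared only per length, as CPM per kilobase of the deposited gene length (RPKM). All 15 fibroblast and adipose progenitor markers were tested, and their summed level was 20800 to 24300 CPM on col1 and 23100 to 33500 CPM on col1-ACLP. Cd34, Ly6a and Pi16, markers of adipose progenitors, fell on col1-ACLP by 0.65, 0.68 and 1.16 on the log2 scale, and Col1a1, a collagen gene, rose by 0.79. At an unadjusted p under 0.05 in edgeR, 5 of these 15 markers were higher and 5 lower (66.7%, beside 14.9% of all tested genes). Markers of other cell types were present too. Summed endothelial markers were at 1180 to 1410 and 1030 to 1310 CPM, and summed macrophage markers at 662 to 797 and 654 to 746 CPM, on col1 and col1-ACLP in that order, with 0 of 10 and 0 of 13 markers called. At an unadjusted p under 0.05, 3 and 2 of them passed in edgeR, 3 and 2 in DESeq2, and 4 and 2 in limma-voom. Over all tested genes the shares under that p were 14.9%, 15.6% and 15.5%. The 8 epithelial markers summed to 92.9 to 95.9 CPM on col1 and 51.1 to 74.1 CPM on col1-ACLP (2 of 8 lowered, 25%). The 6 mast cell markers summed to 39.8 to 44.2 and 28.7 to 36.8 CPM (3 of 5 tested lowered, 60%). The 11 mesothelial markers summed to 323 to 432 and 319 to 362 CPM (1 of 11 lowered, 9.09%). Over all tested genes 1.38% were called. At an unadjusted p under 0.05 in edgeR, 5 of the 8 epithelial markers were lower and 0 higher (62.5%, beside 14.9% of all tested genes). The 9 mural cell markers summed to 365 to 391 CPM on col1 and 368 to 483 CPM on col1-ACLP. None was called, and 2 had an unadjusted p under 0.05 in each of edgeR, DESeq2 and limma-voom. These 2, Abcc9 (0.58) and Kcnj8 (0.42), were higher with groups apart (22.2% of the 9, near the 20.4% of all tested genes). Higd1b (-0.48), Des (-0.23) and Cspg4 (-0.06) were lower, and 6 of the 9 log2 fold changes were positive. The relation of mural markers to the called Wnt genes was not tested. Summed adipocyte markers were at 326 to 450 and 258 to 381 CPM, most of it from Fabp4 (means of 363 and 291 CPM). Of the 7 adipocyte markers none was called. At an unadjusted p under 0.05 in edgeR, 2 were higher and 2 lower (57.1%, beside 14.9% of all tested genes). Their median log2 fold change was 0.46, and 4 of the 7 were positive. These were Cfd (0.73), Cidec (0.61), Adipoq (0.56) and Retn (0.46), at means of 1.10 to 6.93 CPM. Fabp4 (-0.32), Plin1 (-0.64) and Lep (-0.17) were lower. Summed Schwann cell markers were at 17.4 to 23.6 and 23.2 to 24.1 CPM. Summed lymphocyte markers were at 1.14 to 2.13 CPM on col1 and 0.57 to 0.86 CPM on col1-ACLP. Of these 8 markers 3 had enough counts to test, and none was called. Fewer cells of a type and less RNA per cell cannot be told apart in bulk samples. Aebp1, the gene that encodes ACLP itself, was at 742 ± 62.5 CPM (SD) on col1 and 893 ± 168 CPM on col1-ACLP, with overlapping libraries.

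Of the 58 Wnt genes, 54 had enough counts to test, and 3 of these were raised on col1-ACLP, the R-spondin receptor Lgr6, the Frizzled receptor Fzd2 and the co-receptor Ror1. None was lowered. A call needed a Benjamini-Hochberg adjusted p under 0.05 over all 17717 tested genes in edgeR's quasi-likelihood test and an absolute log2 fold change over 0.58. The 3 called genes are 5.56% of the tested members, where 1.38% of all tested genes were called, 0.66% raised and 0.722% lowered. The members were chosen with earlier results of these data known, so their shares beside those of all genes are descriptions, not tests. Without the fold threshold the same count of 3 stood beside 2.05% of all genes. DESeq2 called 4 members, these 3 and Rspo1 (lowered), beside 1.98% of all genes, and limma-voom called 2, Lgr6 and Fzd2, beside 1.37%. Without col1 replicate 3, 1 member was called (Lgr6), and without the low-count filter 5, with Wnt2 and Rspo1 added. At an unadjusted p under 0.05, 9 members were higher and 4 lower, 24.1% of those tested against 14.9% of all genes (7.6% higher and 7.26% lower). DESeq2 put 13 members and limma-voom 10 under that unadjusted p, beside 15.6% and 15.5% of all genes. The libraries of the groups did not overlap for 12 members, 22.2%, close to the 20.4% over all genes. The members as a whole were not shifted. Their log2 fold changes, col1-ACLP over col1, had a median of 0.01 and ran from -0.79 to 1.57, 28 of 54 were positive beside 51.1% of all genes, and the median over all genes was also 0.01.

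**Figure D1:**
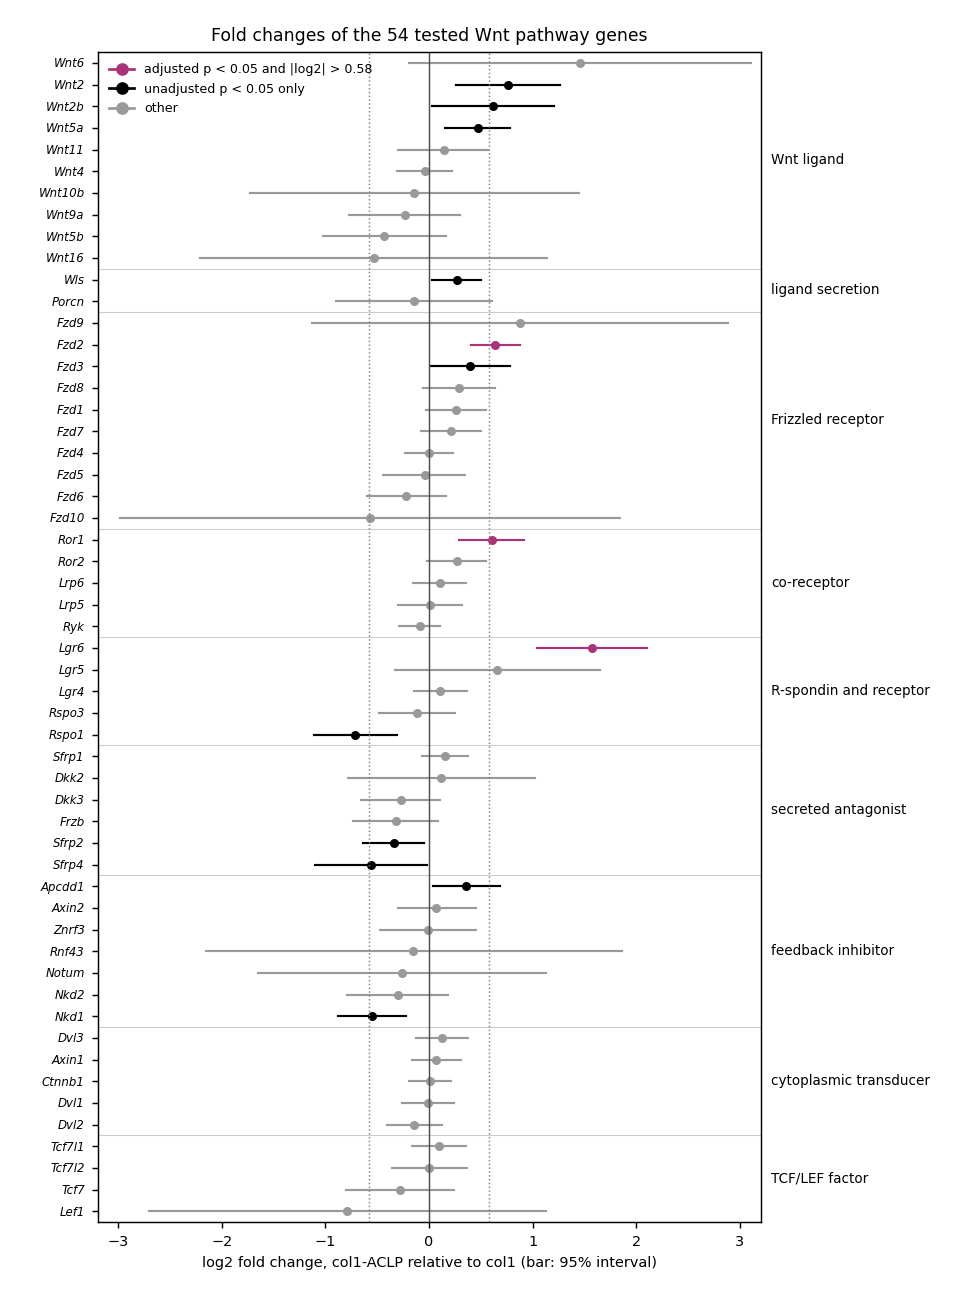
Log2 fold change of each tested Wnt gene, col1-ACLP over col1 (n = 3 each), with its 95% confidence interval from edgeR, grouped by role. Called genes are in magenta, those with an unadjusted p under 0.05 only in black and the rest in grey, and dotted lines mark the fold threshold. Lgr6 at 1.57, Fzd2 at 0.64 and Ror1 at 0.61 lie to the right of 0.58 while most intervals cross 0.

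The pathway was broadly expressed in these cells. Over all 6 libraries, 40 members had a mean level of at least 1 RPKM and 10 of at least 10 RPKM. The most abundant was Sfrp2, a secreted Frizzled-related protein, at a mean of 147 RPKM, followed by Ctnnb1, the gene of β-catenin, at 76.0 RPKM and Ryk at 49.1 RPKM. Fzd1 (32.0 RPKM), Sfrp1 (27.3 RPKM), Wnt4 (21.8 RPKM), Fzd2 (19.5 RPKM), Wls (17.1 RPKM), Axin1 (14.6 RPKM) and Dvl1 (13.3 RPKM) completed the 10 genes. Every role had at least 1 gene above 5 RPKM, the TCF/LEF factors Tcf7l1 at 8.40 RPKM, except the feedback inhibitors, led by Nkd1 at 4.86 RPKM.

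**Figure D2:**
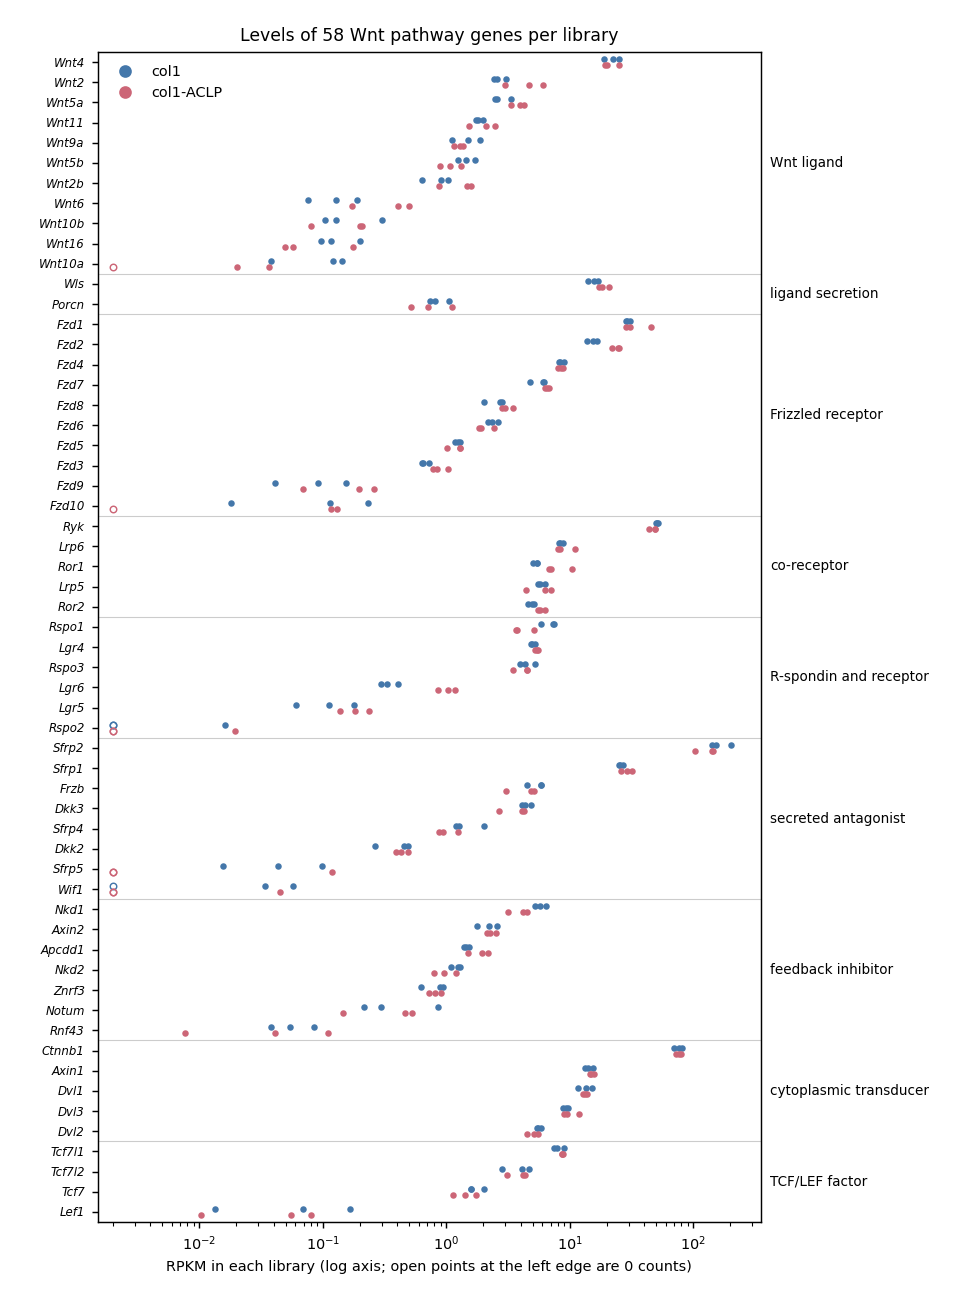
Level of each member per length in each library (RPKM, log axis), by role, with col1 and col1-ACLP libraries (n = 3 each) in separate colours and 0 counts as open points at the left edge. Sfrp2, Ctnnb1 and Ryk lie at the right end of the axis, and the groups overlap for most genes.

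The largest change was in Lgr6, a receptor for R-spondins. The gene lies on chromosome 1, minus strand, 134911039 to 135033014 in the files' coordinates, taken as GRCm39 like those of the genes that follow. Its level was 2.01, 2.81 and 2.25 CPM in the col1 libraries and 7.06, 8.10 and 5.83 CPM in the col1-ACLP libraries. Every col1-ACLP library was above every col1 library, and the log2 fold change was 1.57 ± 0.25 (SE, 95% interval 1.04 to 2.1, edgeR adjusted p = 0.0027). Per length Lgr6 was nevertheless among the less abundant members, rising from a mean of 0.344 to 1.02 RPKM. Its promoter is shown beside those of Ror1 and Rspo1, since these are the genes of the receptor and R-spondin groups with the strongest differences for which a promoter sequence was at hand. The sequences are from RefSeq on GRCm38.p6, run 5′ to 3′ on the gene's strand from 250 bases before to 50 after the annotated start, and carry in capitals any match to TCF/LEF (CTTTGA or TCAAAG), SMAD (CAGACA or TGTCTG), TEAD (GGAATG or CATTCC), AP-1 (TGANTCA) or SRF (CArG box) letters, searched on both strands.
Lgr6, chr1:135105227-135105526, minus strand: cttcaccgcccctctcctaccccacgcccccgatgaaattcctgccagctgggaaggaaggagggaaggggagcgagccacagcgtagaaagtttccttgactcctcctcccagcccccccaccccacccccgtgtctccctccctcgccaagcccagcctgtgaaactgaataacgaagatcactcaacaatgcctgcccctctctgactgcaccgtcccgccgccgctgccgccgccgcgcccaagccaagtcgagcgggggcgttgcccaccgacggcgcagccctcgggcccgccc
Ror1, chr4:100095541-100095840, plus strand: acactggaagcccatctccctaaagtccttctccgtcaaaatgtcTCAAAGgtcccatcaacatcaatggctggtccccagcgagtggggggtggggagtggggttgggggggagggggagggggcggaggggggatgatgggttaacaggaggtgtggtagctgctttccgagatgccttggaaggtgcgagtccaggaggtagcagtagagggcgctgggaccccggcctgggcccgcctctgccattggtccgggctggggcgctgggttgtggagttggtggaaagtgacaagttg
Rspo1, chr4:124986180-124986479, plus strand: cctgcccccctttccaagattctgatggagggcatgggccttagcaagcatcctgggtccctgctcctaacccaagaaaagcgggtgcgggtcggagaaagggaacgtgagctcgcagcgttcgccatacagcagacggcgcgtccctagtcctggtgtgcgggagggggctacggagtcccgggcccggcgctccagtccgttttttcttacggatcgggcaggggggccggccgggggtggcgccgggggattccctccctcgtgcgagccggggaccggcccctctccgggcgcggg

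The only match in these 3 promoters was TCAAAG in that of Ror1, 205 bases before the start. TCF/LEF letters were present in 16.0% of the 32851 promoters of this length in the table and in 6 of the 49 promoters that the table lists for 39 members (12.2%). SMAD letters were in 21.0% of all promoters, TEAD letters in 14.7%, AP-1 letters in 7.81% and the SRF box in 1.63%, and each of these 4 was in 3 of the 49 member promoters (6.12%). A match is a description of letters, not of binding.

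Among the other R-spondins and receptors, Rspo1, a secreted ligand of the LGR receptors, went the opposite way to Lgr6. It lies on chromosome 4, plus strand, 124880223 to 124902892, and its level was 14.1, 14.4 and 11.4 CPM on col1 and 7.24, 10.0 and 7.13 CPM on col1-ACLP. The groups did not overlap. The log2 fold change was -0.71 ± 0.19 (95% interval -1.11 to -0.31), and the gene missed the threshold in edgeR (adjusted p = 0.0636) and limma-voom (0.0638) but passed in DESeq2 (0.0159). Without col1-ACLP replicate 2 it passed in edgeR as well (-0.89, adjusted p = 0.0264). The summed epithelial and mast cell markers, with the values given above, were also lower in all 3 col1-ACLP libraries. So were the summed lymphocyte markers, at 2.13 CPM or below in every library. Most of the mast cell sum was Kit, at means of 31.0 and 30.2 CPM (log2 fold change -0.04). The mesothelial sums overlapped, with 5 of 11 markers lower and 0 higher at an unadjusted p under 0.05 in edgeR (45.5%, beside 14.9% of all tested genes). The progenitor markers went both ways. The part of these cell types in the Rspo1 difference was not tested. Lgr4, the most abundant LGR receptor per length, was at 28.3, 29.1 and 30.7 CPM on col1 against 32.3, 31.0 and 31.7 CPM on col1-ACLP. Its groups were apart by a small step, with a log2 fold change of 0.11 ± 0.12. Rspo3, another R-spondin, had overlapping libraries and a fold change of -0.12 ± 0.17, and Lgr5, the paralogue of Lgr6, was at 0.622 to 1.83 CPM on col1 and 1.41 to 2.45 CPM on col1-ACLP (0.66 ± 0.47). Rspo2 had 4 counts in col1 replicate 2 and 4 in col1-ACLP replicate 1 and none elsewhere, and was not tested. Summed per length, this group of 6 genes was at 16.4, 17.3 and 16.8 RPKM on col1 and 14.0, 16.3 and 14.5 RPKM on col1-ACLP, a ratio of 0.888, which turned to 1.02 when CPM were summed without length. The share of the sum that came from Rspo1 was 44.4%, 43.0% and 35.1% on col1 and 26.7%, 31.6% and 25.3% on col1-ACLP.

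**Figure D3:**
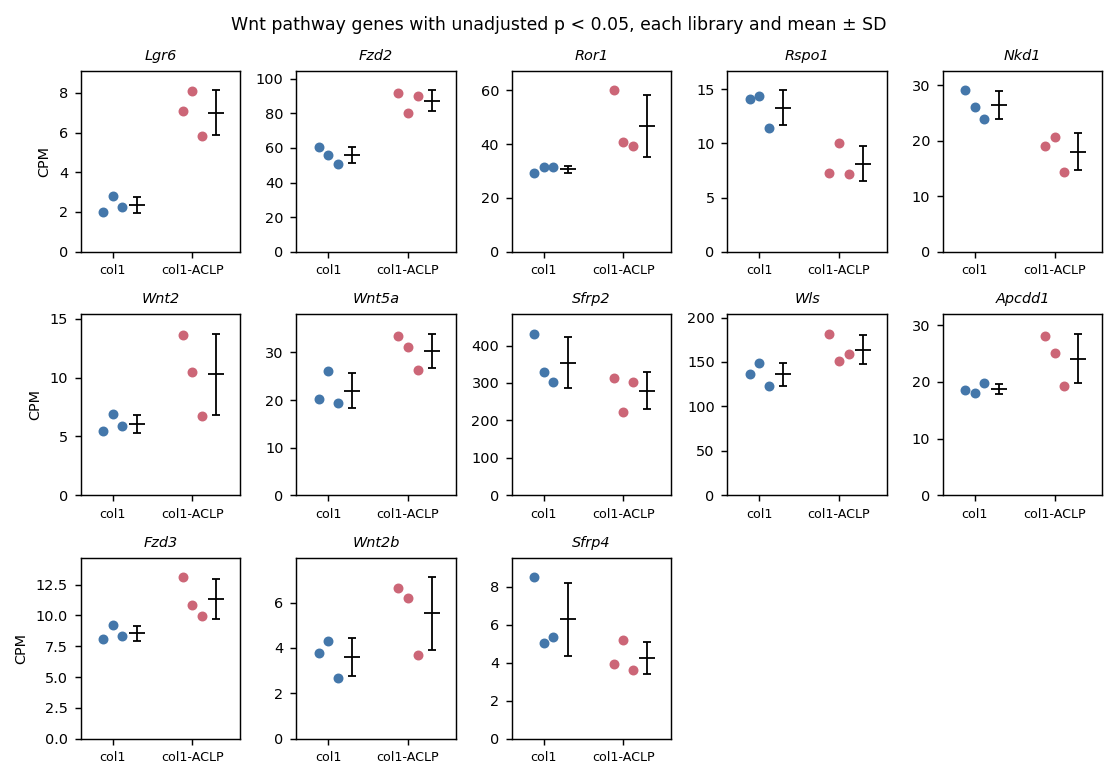
CPM of the 13 members with an unadjusted p under 0.05 in each of the 6 libraries (linear axes from 0), with mean ± SD beside the points of each group (n = 3). Lgr6, Fzd2 and Ror1 are higher in all 3 col1-ACLP libraries, and col1-ACLP replicate 1, at 60.1 CPM, stands above the other 2 for Ror1.

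Fzd2 rose among the Frizzled genes, which encode the receptors that Wnt ligands bind directly. It lies on chromosome 11, plus strand, 102495222 to 102498884. Its level was 60.7, 56.0 and 50.9 CPM on col1 and 91.7, 80.2 and 89.8 CPM on col1-ACLP. The lowest col1-ACLP library was well above the highest col1 library. Means were 55.9 ± 4.90 and 87.3 ± 6.17 CPM (SD, n = 3), and the log2 fold change was 0.64 ± 0.11 (95% interval 0.41 to 0.88, edgeR adjusted p = 0.00549). This lies just over the fold threshold, and without col1 replicate 3 it was 0.57 (adjusted p = 0.0479).

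Fzd1, the most abundant Frizzled gene, was at 121, 128 and 119 CPM on col1 against 189, 120 and 130 CPM on col1-ACLP. Replicate 1 of col1-ACLP stood far above the rest, replicate 3 was just above the col1 range and replicate 2 lay within it. The groups thus overlapped, and the log2 fold change was 0.26 ± 0.14 (edgeR adjusted p = 0.412). Fzd3, known for its part in planar polarity, was at 8.09, 9.23 and 8.31 CPM on col1 against 13.1, 10.8 and 9.96 CPM on col1-ACLP. The groups did not overlap, but at 0.40 ± 0.18 the difference did not pass the adjusted threshold (unadjusted p = 0.0396, edgeR adjusted p = 0.306). Fzd7 was the other Frizzled gene whose groups were apart, at 21.6 to 27.9 and 28.7 to 30.7 CPM (0.21 ± 0.14). Fzd4 was level at 0.00 ± 0.11, with a 95% interval of -0.23 to 0.23. Fzd5, Fzd6 and Fzd8 lay between -0.22 and 0.29 with overlapping groups, and Fzd9 and Fzd10 stayed under 1 CPM in every library, with 95% intervals of -1.13 to 2.89 and -2.98 to 1.84.

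Summed over the 10 genes, the Frizzled level was 64.6, 68.1 and 64.0 RPKM on col1 and 93.3, 72.7 and 77.6 RPKM on col1-ACLP, a ratio of 1.24 with the groups apart. The makeup of the sum differed as well. Fzd2 gave 25.7%, 22.5% and 21.7% of it on col1 and 26.9%, 30.1% and 31.6% on col1-ACLP, so all 3 shares were higher on col1-ACLP. The share from Fzd1 was 44.5%, 44.6% and 44.2% on col1 and 48.3%, 39.4% and 39.9% on col1-ACLP, above the col1 range in replicate 1 and below it in the other 2. The Frizzled genes are related in sequence, and of the 3633 words of 31 bases in the Fzd2 transcripts, 5.37% were found in transcripts of other genes, 53 of them in Fzd1.

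**Figure D4:**
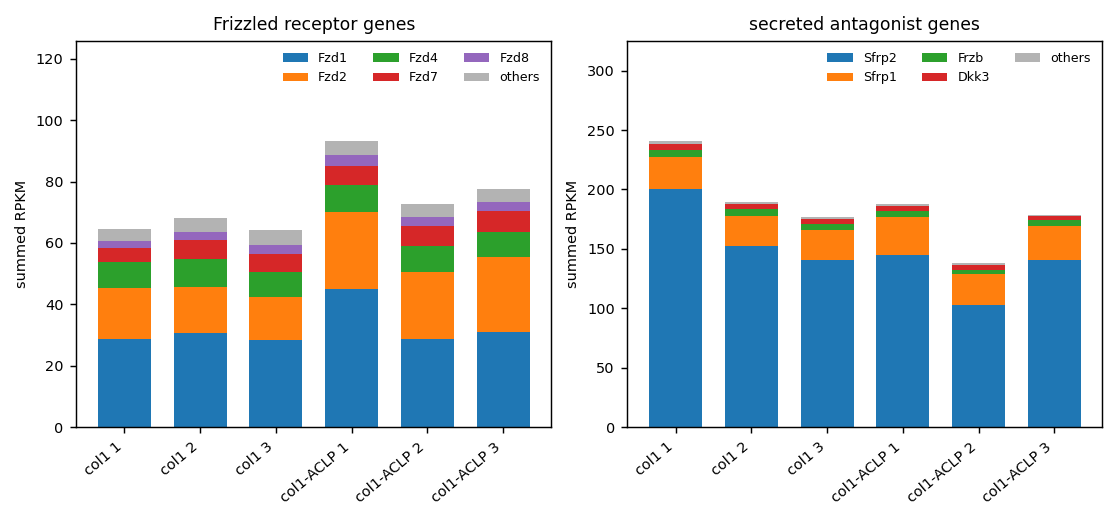
Summed RPKM of the 10 Frizzled receptor genes (left) and the 8 secreted antagonist genes (right) in each library, as bars from 0 stacked by gene, with low genes pooled as others. The Frizzled sum is higher in all 3 col1-ACLP libraries, at 72.7 to 93.3 RPKM against 64.0 to 68.1 RPKM, while the antagonist sums, mostly Sfrp2, overlap.

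Ror1 was the called co-receptor, a receptor of the tyrosine kinase family that binds WNT5A. It lies on chromosome 4, plus strand, 99952988 to 100301962. Its level was 29.2, 31.5 and 31.4 CPM on col1 and 60.1, 40.7 and 39.4 CPM on col1-ACLP. All col1-ACLP libraries were above all col1 libraries, replicate 1 by the most. The log2 fold change was 0.61 ± 0.15 (95% interval 0.29 to 0.92, edgeR adjusted p = 0.0468), so both thresholds were passed narrowly. With 1 library left out it passed both only without col1-ACLP replicate 2 (0.70, adjusted p = 0.0316). Without col1-ACLP replicate 1 the change was 0.38 (adjusted p = 0.236), and without col1-ACLP replicate 3 or col1 replicate 1, 2 or 3 it was 0.57 to 0.71 with edgeR adjusted p-values of 0.0603 to 0.159. Ror2, its paralogue, was at 20.9, 21.8 and 19.3 CPM on col1 against 24.3, 26.8 and 23.5 CPM on col1-ACLP. These groups also did not overlap, and the difference of 0.27 ± 0.13 did not pass (edgeR adjusted p = 0.375).

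Ryk, which encodes an atypical receptor for Wnt ligands, was the most abundant co-receptor gene, at 225, 229 and 235 CPM on col1 and 199, 224 and 224 CPM on col1-ACLP. The groups were apart by a narrow margin, with a log2 fold change of -0.09 ± 0.10. Lrp6 was at 114, 112 and 120 CPM on col1 against 150, 110 and 113 CPM on col1-ACLP, overlapping groups with replicate 1 of col1-ACLP again the highest (0.11 ± 0.12). Lrp5, the other β-catenin branch co-receptor, differed by 0.01 ± 0.15. The co-receptor sum was 75.1 ± 0.929 RPKM on col1 and 76.5 ± 1.42 RPKM on col1-ACLP, a ratio of 1.02 that was 0.994 when scaled by library totals. Ryk gave 66.8%, 67.3% and 68.1% of it on col1 and 56.2%, 65.7% and 64.7% on col1-ACLP, lower in every col1-ACLP library.

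No Wnt ligand passed the adjusted threshold. In edgeR 3 of 10 had an unadjusted p under 0.05 (30%, beside 14.9% of all tested genes). DESeq2 put 3 and limma-voom 2 under it, beside 15.6% and 15.5% of all genes. Wnt2, a ligand of the β-catenin branch, was at 5.45, 6.90 and 5.85 CPM on col1 against 13.6, 10.5 and 6.73 CPM on col1-ACLP. Replicate 3 of col1-ACLP lay within the col1 range, and the log2 fold change of 0.76 ± 0.23 (95% interval 0.26 to 1.26) had an edgeR adjusted p of 0.114. Without that replicate it was 0.99 (adjusted p = 0.0478), and without col1-ACLP replicate 1 it was 0.51 (edgeR adjusted p = 0.45). Wnt5a, the ligand of ROR receptors, was at 20.3, 26.2 and 19.4 CPM on col1 against 33.5, 31.2 and 26.3 CPM on col1-ACLP. The groups were apart, col1 replicate 2 and col1-ACLP replicate 3 nearly touching, and the difference was 0.47 ± 0.15 (unadjusted p = 0.00665, edgeR adjusted p = 0.134). Wnt2b, related to Wnt2, was at 3.79, 4.30 and 2.69 CPM on col1 against 6.66, 6.20 and 3.69 CPM on col1-ACLP. Its groups overlapped through col1-ACLP replicate 3, with a difference of 0.62 ± 0.28 (edgeR adjusted p = 0.308). The span of a long noncoding RNA gene with 5.77% as many counts overlaps that of Wnt2b.

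Wnt4 held most of the ligand level, at 104, 79.9 and 94.1 CPM on col1 and 84.2, 105 and 80.7 CPM on col1-ACLP. The groups covered the same range, and the 95% interval of the difference was -0.31 to 0.22. Its share of the ligand sum per length was 59.3% to 70.1% on col1 and 53.9% to 62.7% on col1-ACLP. Wnt11 (0.14 ± 0.21), Wnt9a (-0.23 ± 0.25) and Wnt5b (-0.43 ± 0.28) had overlapping groups at 2.35 to 10.2 CPM. The gene span of Wnt5b overlaps that of Fbxl14, on the opposite strand, whose counts amount to 1210% of its own. Whether their exons overlap was not checked, so without strand-specific counting the level of Wnt5b is uncertain. Wnt6, Wnt10b and Wnt16 stayed at or under 1.10 CPM in every library, and their intervals were wide, that of Wnt6 from -0.19 to 3.11. Wnt10a, not tested, had 10, 17 and 4 counts on col1 but 2, 4 and 0 on col1-ACLP. The ligand sum was 35.4, 32.1 and 33.9 RPKM on col1 and 37.3, 39.8 and 31.6 RPKM on col1-ACLP, overlapping groups.

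Of the genes for ligand release, Wls encodes the carrier that brings lipid-modified Wnt proteins to the surface. It was at 137, 149 and 123 CPM on col1 against 182, 151 and 159 CPM on col1-ACLP. The groups were narrowly apart, and the difference of 0.27 ± 0.11 (unadjusted p = 0.0269) did not pass the adjusted threshold (edgeR adjusted p = 0.255). Porcn, whose product attaches the lipid, was at 3.17, 2.20 and 2.43 CPM on col1 against 3.36, 2.15 and 1.55 CPM on col1-ACLP, with the groups overlapping (-0.14 ± 0.36).

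The secreted antagonists had no called gene. In edgeR 2 of 6 had an unadjusted p under 0.05 (33.3%, beside 14.9% of all tested genes). DESeq2 put 2 and limma-voom 1 under it, beside 15.6% and 15.5% of all genes. Sfrp2, the most abundant Wnt gene of these cells, was at 432, 328 and 303 CPM on col1 against 312, 222 and 303 CPM on col1-ACLP. Replicate 1 of col1 was the highest and replicate 2 of col1-ACLP the lowest, and the other 4 libraries overlapped. The log2 fold change was -0.34 ± 0.14 (unadjusted p = 0.0262, edgeR adjusted p = 0.251). Sfrp4, a related protein, was at 8.50, 5.03 and 5.34 CPM on col1 against 3.91, 5.18 and 3.64 CPM on col1-ACLP, an overlap through replicate 2 of each group (-0.56 ± 0.26, edgeR adjusted p = 0.316). Sfrp1 was at 118, 110 and 111 CPM on col1 against 139, 113 and 126 CPM on col1-ACLP. Its groups overlapped with a difference in the other direction (0.15 ± 0.11). Frzb, another Frizzled-related protein, differed by -0.32 ± 0.19, Dkk3 by -0.27 ± 0.18 and Dkk2, at 1.83 CPM or less in every library, by 0.12 ± 0.43. Sfrp5 and Wif1, with at most 9 counts in any library, were not tested. Sfrp2 alone gave 79.6% to 83.3% of the antagonist sum per length on col1 and 74.9% to 78.8% on col1-ACLP. That sum was 202 ± 33.9 RPKM on col1 and 168 ± 26.6 RPKM on col1-ACLP with overlapping libraries.

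Feedback inhibitors are genes that Wnt signalling itself often induces, and their values in these cells were mixed in direction. Nkd1, whose product binds Dishevelled, was at 29.1, 26.1 and 23.9 CPM on col1 against 19.0, 20.7 and 14.3 CPM on col1-ACLP. The groups did not overlap. The log2 fold change was -0.55 ± 0.16 (unadjusted p = 0.00292, edgeR adjusted p = 0.0884, DESeq2 adjusted p = 0.0249), under the fold threshold with each tool. Apcdd1, an inhibitor at the cell surface, was at 18.5, 18.0 and 19.8 CPM on col1 against 28.0, 25.1 and 19.3 CPM on col1-ACLP. Replicate 3 of col1-ACLP lay within the col1 range, and the difference was 0.36 ± 0.15 (edgeR adjusted p = 0.268). Axin2, a widely used readout of β-catenin activity, was at 14.1, 9.83 and 12.3 CPM on col1 against 14.0, 12.4 and 11.7 CPM on col1-ACLP. The groups overlapped fully, and the 95% interval of -0.30 to 0.45 leaves out a change past the fold threshold. Nkd2 differed by -0.30 ± 0.23 and Znrf3, a ligase that removes Frizzled, by -0.01 ± 0.22. Its partner Rnf43 and Notum, which strips the lipid from Wnt, were at 2.06 CPM or less, with 95% intervals of -2.15 to 1.86 and -1.65 to 1.13. Of the Notum transcript words, 44.0% were found in transcripts of other genes, so its counts are uncertain. The same share was 29.2% for Fzd10, 28.2% for Dvl1, 21.1% for Dvl2, 20.3% for Wnt5b and 19.9% for Sfrp2.

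The genes that carry the signal inside the cell differed little, the 5 transducers lying between -0.14 and 0.13 on the log2 scale. Ctnnb1 was at 421, 395 and 363 CPM on col1 against 411, 399 and 378 CPM on col1-ACLP. The groups covered the same range, with a difference of 0.01 ± 0.10 and a 95% interval of -0.19 to 0.21. Axin1, part of the complex that degrades β-catenin, was at 59.3, 53.3 and 50.6 CPM on col1 against 55.5, 56.4 and 59.6 CPM on col1-ACLP, overlapping groups with a difference of 0.07 ± 0.11. The Dishevelled genes Dvl1, Dvl2 and Dvl3 differed by -0.01 ± 0.12, -0.14 ± 0.13 and 0.13 ± 0.12. Dvl2 overlaps Acadvl, whose counts amount to 102% of its own, and is uncertain in the same way. Of the TCF/LEF factors, Tcf7l1 was at 35.3, 30.7 and 29.4 CPM on col1 against 34.4, 33.7 and 34.2 CPM on col1-ACLP. Its groups overlapped (0.10 ± 0.12). Tcf7l2 was at 24.9, 36.7 and 41.2 CPM on col1 against 27.5, 37.0 and 38.6 CPM on col1-ACLP, level at 0.00 ± 0.17, with replicate 1 the lowest in both groups. Tcf7 differed by -0.28 ± 0.25, and Lef1, at 1.47 CPM or less, by -0.79 ± 0.91. In all, 23 of the 54 tested members had a 95% interval that lay within 0.58 on either side of 0, and for the remainder a change past the fold threshold could not be left out.

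The members also varied between libraries of a group. Their median coefficient of variation was 13.2% on col1 and 17.6% on col1-ACLP. The highest of the 6 values fell in col1-ACLP replicate 1 for 21 of the 54 tested members, and in that library for 22.4% of all tested genes. Of the 9 members higher at an unadjusted p under 0.05 in edgeR, all but Lgr6 are among these 21. They are Fzd2, Ror1, Wnt2, Wnt5a, Wnt2b, Wls, Fzd3 and Apcdd1. Lgr6 was highest in col1-ACLP replicate 2. Fzd1 and Lrp6, which did not pass that p, also had their highest value in col1-ACLP replicate 1.

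A wider list of 129 other Wnt pathway genes was read beside the members, and 115 of these were tested. Of them 3 were raised and 0 lowered (2.61%, beside 1.38% of all tested genes), and 1 of these 3, Dkk1, entered the test only through its counts on col1-ACLP. At an unadjusted p under 0.05, 14 were higher and 6 lower (17.4%, near the 14.9% of all genes), and 32 had groups apart (27.8% beside 20.4%). The median log2 fold change was 0.07. Ccn4, which encodes a matricellular protein and is a described target of Wnt signalling, rose from 44.8 ± 3.40 to 92.8 ± 11.6 CPM (1.05 ± 0.12, edgeR adjusted p = 0.000125). Nfatc1, a transcription factor of the calcium branch, rose from 22.3 ± 4.01 to 39.0 ± 4.04 CPM (0.81 ± 0.15, edgeR adjusted p = 0.00755). Both were higher in all 3 col1-ACLP libraries than in any col1 library.

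Dkk1, a secreted antagonist of LRP5 and LRP6 that is also a described target, had 0 counts in all 3 col1 libraries and 14, 14 and 24 counts on col1-ACLP. With a floor of 3 counts over the col1 group (0.0241 CPM) against 0.43 CPM pooled over col1-ACLP, it was at least 17.9-fold higher. The floor covers counting error only. It passed the low-count filter only through the col1-ACLP libraries, so its difference is given as a description, and its edgeR call was lost when any library was left out. By group, the 31 described target genes, Dkk1 among them, held 1 other called gene (Ccn4). Of 34 genes of the planar polarity and calcium branch 1 was called (Nfatc1). None was called among 24 genes of the destruction complex and its kinases or 19 nuclear partners of β-catenin. In those last 2 lists 4 and 2 genes had an unadjusted p under 0.05 in edgeR (16.7% and 10.5%, beside 14.9% of all tested genes). DESeq2 put 4 and 3 under it, and limma-voom 4 and 2, beside 15.6% and 15.5% of all genes. Of the remaining antagonists and Dickkopf receptors, none but Dkk1 was called. At an unadjusted p under 0.05 in edgeR, 2 of the 7 tested were higher (Dkk1, Kremen1) and 1 lower (Igfbp4), 42.9%. Groups were apart for 4 of the 7 (57.1%, beside 20.4% of all tested genes). Of the described target genes 6 were higher and 1 lower at that p (22.6%), and 8 had groups apart (25.8%). These counts include Dkk1. Of the remaining Wnt and R-spondin ligands only Wnt7a and Wnt7b had enough counts to test, at 0.181 to 0.748 and 1.05 to 2.55 CPM.

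**Figure D5:**
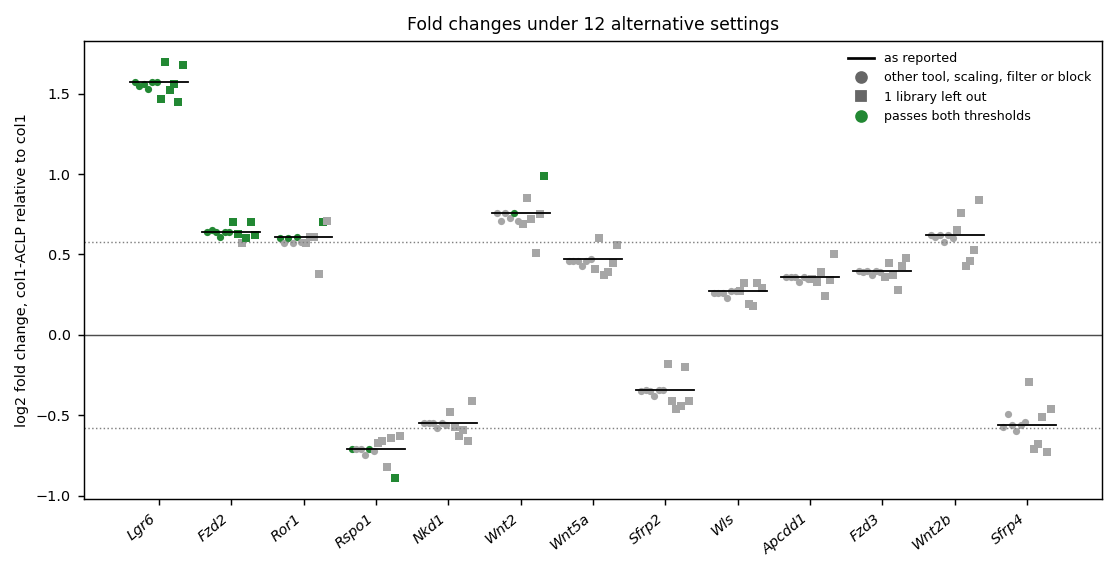
Log2 fold change, col1-ACLP over col1, of the members with an unadjusted p under 0.05 as reported (black line) and under 12 alternatives, of which 6 leave out 1 library (squares), with green points past both thresholds and dotted lines at the fold threshold. All 13 keep their sign, Lgr6 stays between 1.45 and 1.70, and Ror1 drops to 0.38 without col1-ACLP replicate 1.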

How the data were processed

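Primary stromal cells were profiled by bulk RNA-seq after polyA enrichment, with 3 libraries on col1 and 3 on col1-ACLP. The deposited values are raw whole-number gene counts, which the authors made by alignment with HISAT2. Their methods give GRCm39 and the processing notes give mm10, and the file's coordinates were checked against a GRCm39 annotation, where 51 of 58 members (87.9%) start within 1000 bases. Which program counted the reads, and whether strand was used, is not stated in the labels or methods. Tests used edgeR 4.0.16 (R 4.3.3) with filterByExpr (minimum count 10, minimum total 15), TMM scaling, the quasi-likelihood test and Benjamini-Hochberg adjustment over 17717 genes. DESeq2 1.42.0, limma 3.58.1 (voom), other scalings, no filter, the replicate number as a block and leaving out each library were alternatives. Replicate numbers did not pair the libraries (correlations of deviations -0.04, -0.05 and -0.02). The count noise between replicates exceeded sampling noise (chi-square per degree of freedom 22.3 to 61.4), so no library was a duplicate. Members, gene lists and the alternatives were chosen with earlier results of these data known. Text values are given for members with an unadjusted p under 0.05, members called with any tool, and the 2 highest per length in each role, and for other listed Wnt genes past the adjusted threshold. Levels per length are TMM-scaled CPM per kilobase of deposited gene length. RefSeq promoters (GRCm38.p6) matched 39 of 58 members. A count of 3 in a library corresponds to 0.0624 to 0.0889 CPM.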

Additional observations from a re-analysis of the deposited data

How the results depend on the processing

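Of the 58 Wnt genes, 3 were called as reported. Without the low-count filter 5 were called, 4 raised and 1 lowered, with Wnt2 (adjusted p = 0.0216) and Rspo1 (0.0167) added, and leaving out 1 library at a time gave 1 to 4, with 1 called without col1 replicate 3. Lgr6 was called under all 12 alternatives (log2 fold change 1.45 to 1.70) and Fzd2 under 11. Ror1 was called under 4, with 0.57 by limma-voom, 0.57 on library totals (adjusted p = 0.0672) and adjusted p-values from 0.000798 to 0.236. Rspo1 was called under 3, its log2 fold change running from -0.89 to -0.63 over all 12, and Wnt2 was called under 2. With the replicate number as a block, 2 members were called and 194 of all genes against 245, Ror1 (0.58, adjusted p = 0.109) and Dkk1 (0.117) being lost. Over all genes, 389 were called without the filter and 148 to 289 with 1 library left out, the lower counts being 157 without col1 replicate 1, 163 without col1 replicate 3, 151 without col1-ACLP replicate 1 and 148 without col1-ACLP replicate 3. Of the other Wnt genes 2 or 3 were called throughout. The co-receptor ratio of 1.02 became 0.994 on library totals, and the R-spondin group's 0.888 became 1.02 without division by length. All 13 members with an unadjusted p under 0.05 kept their sign under every alternative, whereas 18 others took values of both signs over the reported and alternative fits, read to 2 decimals. The cause of these differences was not tested. No scaling moved the median of all genes by over 0.1. Genes near or under 1 CPM had wide intervals at this depth, that of Fzd10 running from -2.98 to 1.84.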
